A study of Mus musculus with 6 samples.

Results

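The genes described here are 10 genes of the marrow stroma and of adipocytes, namely *Cxcl12*, *Kitl*, *Lepr*, *Pparg*, *Cebpa*, *Adipoq*, *Cfd*, *Lpl*, *Plin1* and *Fabp4*. They were found by name, by matching Ensembl gene identifiers to symbols on the mouse genome build GRCm38. Earlier results of these data were known when the 10 genes were chosen. All 10 were present among the 47729 genes of the table. Gene expression in the proximal tibia was measured by bulk RNA sequencing of polyadenylated RNA in 3 Control mice, of the strain labelled Control (ICR), and 3 LS1 mice, of the strain labelled Longshanks 1, all 14 days old. Longshanks mice descend from parents selected for a tibia longer than their weight would give, and Control mice were mated at random from the same stock. The mice came from different families, and the epiphyses of both tibiae of a mouse were pooled, so that each library stands for 1 mouse. The tissue is labelled as bone, cartilage and marrow and holds the growth plate, the metaphysis, the articular cartilage and the secondary ossification centre together.

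In the bone marrow, perivascular stromal cells that carry the leptin receptor (*Lepr*) make CXCL12, a chemokine that holds blood stem cells in the marrow, and KIT ligand (*Kitl*), a growth factor that keeps them alive. The same stromal cells include precursors of marrow adipocytes. The transcription factors PPARγ (*Pparg*) and C/EBPα (*Cebpa*) drive fat cell formation and keep genes of the mature adipocyte active, among them the hormone adiponectin (*Adipoq*), the complement protease adipsin (*Cfd*), lipoprotein lipase (*Lpl*), the lipid droplet coat protein perilipin 1 (*Plin1*) and the fatty acid carrier FABP4 (*Fabp4*). Several of the 10 genes are also active outside these cells, since osteoblasts make *Cxcl12*, endothelial cells make *Kitl* and *Fabp4*, and macrophages make *Lpl*. In bulk tissue, fewer cells of a type and less RNA per cell cannot be told apart.

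The values below are normalised read counts, that is, reads per gene divided by 1 size factor per library. The 6 libraries held 68803249 to 88745366 reads, with 68803249 to 76581954 in Control and 82227711 to 88745366 in LS1, so depth did not overlap between the groups. The lowest read count of any of the 10 genes in any library was 300 reads (*Plin1* in Control replicate 3), so counting error was small beside the spread between mice. All 10 passed the filter of a mean of at least 20 reads, as did 19308 genes in all. Summed markers of the labelled tissues were well expressed, with 8 osteoblast genes at 32294 to 40638 TPM (a level of transcripts, from reads corrected for transcript length and for the total of the library), 8 chondrocyte genes at 10600 to 17883 TPM and 8 genes of myeloid progenitors and neutrophils at 6501 to 9824 TPM.

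Of the 10 genes, 8 had a higher mean in LS1 than in Control and 2, *Cfd* and *Fabp4*, had a lower mean on the log2 scale of the fit, where 50.7% of all genes tested were higher by any amount. *Lpl*, *Plin1* and *Kitl* stood furthest apart between the groups, by 1.62-fold, 1.79-fold and 1.38-fold. None of the 10 passed an adjusted p-value of 0.05 with limma, a linear model with moderated variances fitted to log2(value + 1) of all genes, and adjusted p-values ran from 0.128 (*Lpl*) to 0.946 (*Adipoq*). With limma, 0.0725% of all genes passed (14 of 19308). At an unadjusted limma p under 0.05 stood 3 of the 10, *Kitl*, *Lpl* and *Plin1*, all higher in LS1, against 12.9% of all genes in either direction and 7.08% higher in LS1. With 1 library left out this count ran from 2 (without Control replicate 3 or LS1 replicate 3, where *Plin1* dropped out) to 5 (without LS1 replicate 2). Without LS1 replicate 1 *Cebpa* took the place of *Plin1*. Over all genes, 1741 of 19370 stood at this p without Control replicate 3 and 3220 of 19267 without LS1 replicate 3. The number was 2088 of 19197 without LS1 replicate 2 and 2348 of 19290 without LS1 replicate 1. On reads recovered from the same values, edgeR called 0 of the 10 genes (0.0363% of all genes) and DESeq2 called 1, *Lpl* (2.38% of all genes). The median log2 fold change of the 10 was 0.33, beside 0.01 over all genes tested. Without LS1 replicate 3, which was high for many of them, 6 were higher and 4 lower, and the median was 0.15 on the log2 scale. Without LS1 replicate 2, in which several were low, all 10 were higher and the median was 0.39 (log2).

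**Figure D1:**
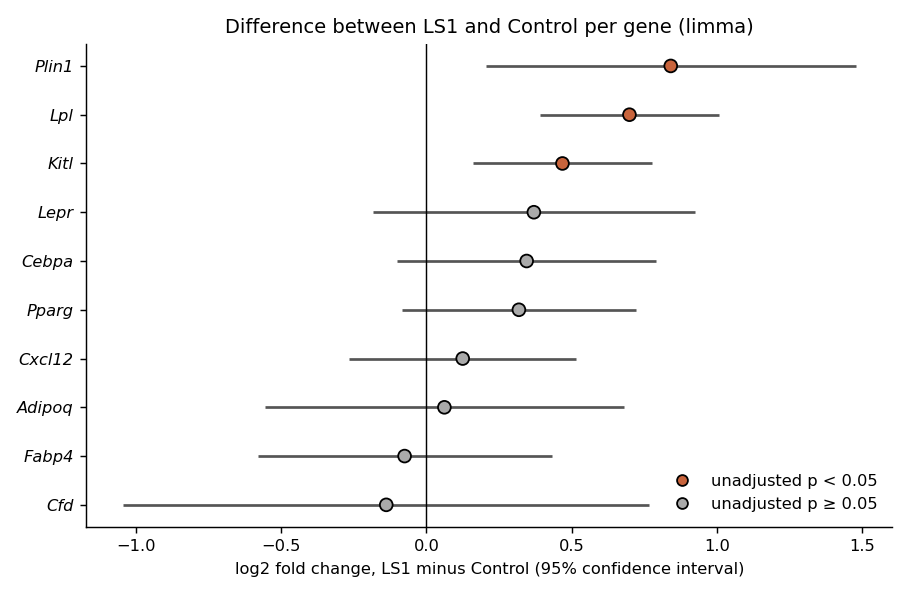
Difference between LS1 and Control for each of the 10 genes, as the log2 fold change from limma (horizontal axis) with its 95% confidence interval, 3 mice per group. The intervals of *Plin1*, *Lpl* and *Kitl* lie above 0, and those of the other 7 genes include it.

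*Cxcl12* (ENSMUSG00000061353, chr6:117168535-117181367, plus strand, GRCm38) had 47186, 44066 and 57947 normalised reads in Control replicates 1, 2 and 3. In LS1 it had 47918, 46759 and 69742. The LS1 mean was set by replicate 3, and the other LS1 libraries lay within the Control range. The log2 fold change was 0.13 (SE 0.18, 95% confidence interval -0.27 to 0.52, limma adjusted p = 0.804), and it was -0.061 without LS1 replicate 3.

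*Kitl* (ENSMUSG00000019966, chr10:100015630-100100416, plus strand) had 3652, 3115 and 3351 normalised reads in Control and 5116, 4077 and 4838 in LS1. Every LS1 library was above every Control library. Means were 3373 ± 269 in Control and 4677 ± 538 in LS1 (SD, n = 3 mice each). The fold change was 1.38 (95% confidence interval 1.12 to 1.71), or 0.47 on the log2 scale with an SE of 0.14. The two-sided exact permutation p for *Kitl* was 0.1, the smallest that 3 mice against 3 can give, and the limma adjusted p was 0.247. Leaving out any library kept the log2 fold change between 0.40 and 0.56. *Kitl* and *Lpl* were the 2 genes of the 10 whose groups did not overlap, both higher in LS1. Groups did not overlap in 19.2% of all genes tested, and in 10.3% with LS1 the higher.

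*Lepr* (ENSMUSG00000057722, chr4:101717404-101815352, plus strand), which marks the stromal cells themselves, had 5241, 4279 and 6536 normalised reads in Control. Values in LS1 were 7478, 4623 and 9148. Replicates 1 and 3 of LS1 lay above all Control libraries, and replicate 2 lay near the lowest of them. *Lepr* had a log2 fold change of 0.37 (SE 0.25, 95% confidence interval -0.18 to 0.92, limma adjusted p = 0.556). It was 0.16 without LS1 replicate 3, 0.22 without Control replicate 2 and 0.65 without LS1 replicate 2. Relative to *Cxcl12* in the same library, *Kitl* took 0.0774, 0.0707 and 0.0578 in Control and 0.107, 0.0872 and 0.0694 in LS1, ranges that overlapped. The exact permutation p was 0.3 both for this ratio and for the ratio of *Lepr* to *Cxcl12* (n = 3 mice per group, two-sided), ratios chosen after the values were seen.

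The start of *Kitl* is shown because it was the niche ligand whose groups did not overlap. The 250 bases before its RefSeq start site (chr10:100015571-100015820, plus strand, GRCm38.p6) hold the letters TATAAA, 25 bases before the start and given in capitals. Among 32851 such mouse windows, 12.4% hold TATAAA on either strand.
*Kitl* promoter: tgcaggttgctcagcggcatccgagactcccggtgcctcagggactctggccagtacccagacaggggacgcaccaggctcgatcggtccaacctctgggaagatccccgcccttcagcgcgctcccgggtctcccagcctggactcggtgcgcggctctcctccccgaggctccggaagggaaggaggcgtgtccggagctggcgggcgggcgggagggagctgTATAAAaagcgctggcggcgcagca

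**Figure D2:**
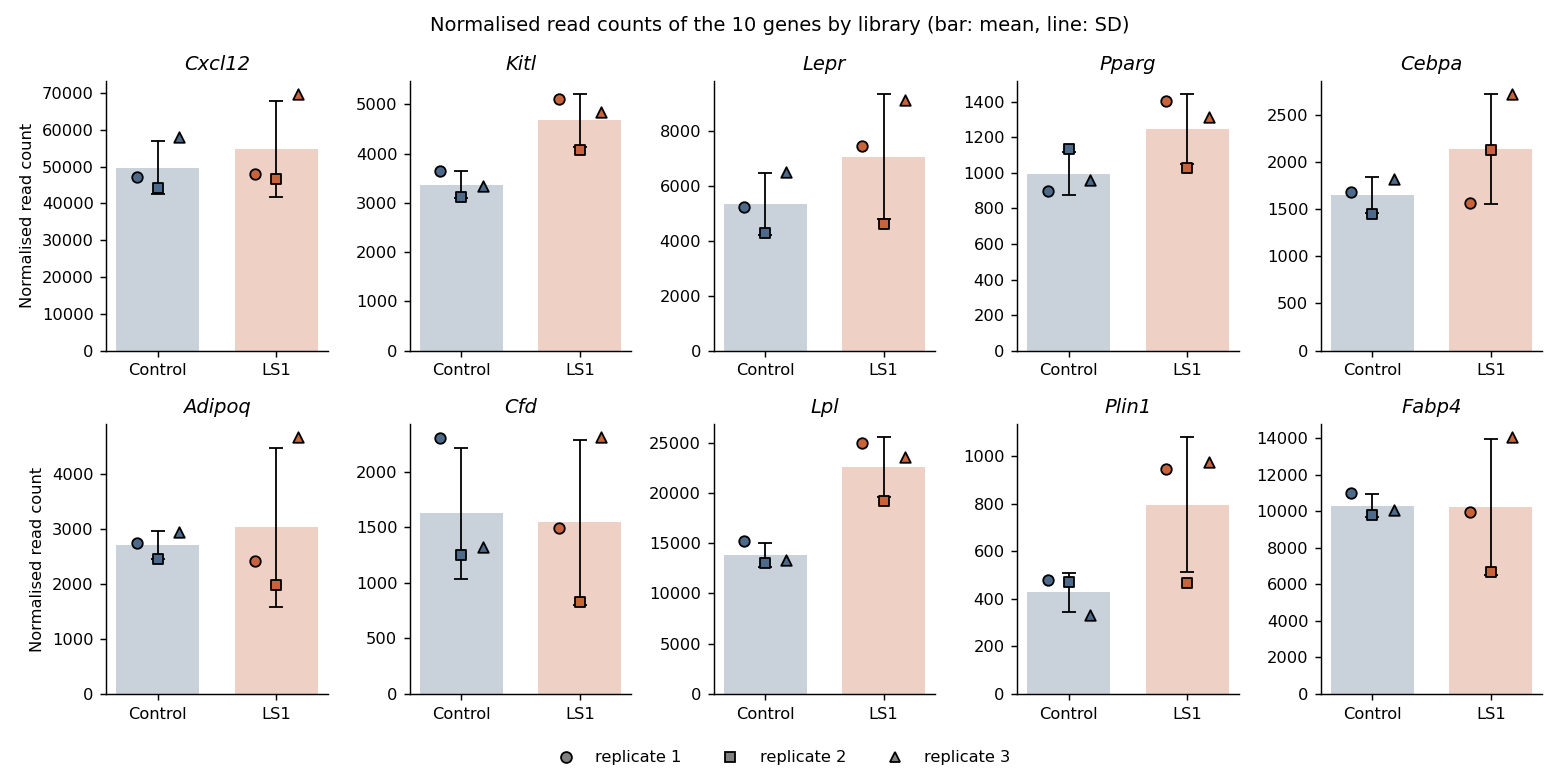
Normalised read counts of the 10 genes in each library (points, with the shape giving the replicate), with group means as bars and SDs as lines (n = 3 mice). *Kitl* and *Lpl* have no overlap between Control and LS1, whereas in *Adipoq*, *Cfd* and *Fabp4* LS1 replicate 2 is the lowest library and LS1 replicate 3 the highest.

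The receptors of these ligands stood on both sides. *Cxcr4*, the receptor through which CXCL12 retains blood cells, had 5340, 3847 and 3898 normalised reads in Control and 3694, 3319 and 3535 in LS1. Every LS1 library was lower, by 0.30 on the log2 scale (log2 fold change -0.30, SE 0.15, limma adjusted p = 0.449). The scavenger receptor *Ackr3* had a log2 fold change of 0.29 and *Kit*, the receptor of KIT ligand, of -0.11. Among the adiponectin receptors the log2 fold changes were -0.13 for *Adipor1*, -0.03 for *Adipor2* and 0.32 for *Cdh13*. None of these 6 receptor genes had an unadjusted limma p under 0.05. Leptin (*Lep*), the ligand of LEPR, fell below the filter with 76 reads in the 6 libraries together.

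Other genes of the niche stroma stood on both sides. Of 20 listed genes, 14 were higher and 6 lower in LS1 (median log2 fold change 0.18), and 1 was higher and 2 lower at an unadjusted limma p under 0.05. The highest log2 fold changes were those of *Il15* (0.54, SE 0.26), which feeds natural killer cells, and *Grem1* (0.46, SE 0.21), a BMP antagonist. The lowest were those of *Igfbp5* (-0.41, SE 0.14) and *Ebf1* (-0.40, SE 0.18), a transcription factor of stromal and B cells. *Spp1*, which bone cells also make in quantity, took 88.2% to 91.3% of the summed level of the list. Without *Spp1* the sum was 889 to 1004 TPM in Control and 929 to 1075 TPM in LS1, ranges that overlapped, with LS1 replicate 3 the highest library.

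*Pparg* (ENSMUSG00000000440, chr6:115360951-115490399, plus strand) had 897, 1134 and 958 normalised reads in Control and 1404, 1026 and 1312 in LS1. LS1 replicates 1 and 3 were above all Control libraries, and replicate 2 was within their range. For *Pparg* the log2 fold change was 0.32 (SE 0.18, 95% confidence interval -0.08 to 0.72, limma adjusted p = 0.491). *Cebpa* (ENSMUSG00000034957, chr7:35119293-35121928, plus strand) had 1677, 1447 and 1818 in Control and 1562, 2129 and 2720 in LS1. Here it was LS1 replicate 1 that lay within the Control range. The log2 fold change of *Cebpa* was 0.34 (SE 0.20, 95% confidence interval -0.10 to 0.79, limma adjusted p = 0.499), and it was 0.15 without LS1 replicate 3 and 0.55 without LS1 replicate 1. The exons of *Cebpa* overlap *Gm45091* on the opposite strand, and since the sources used here do not say whether counting used strand, reads of the pair cannot be told apart.

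The windows before the RefSeq start sites were searched on both strands for letters that these factors are known to bind, AGGTCA (a repeat unit of PPARγ sites) and TTGCNNAA (a C/EBP site). AGGTCA stood in 14.0% and TTGCNNAA in 9.56% of all 32851 mouse windows. RefSeq windows were matched to 8 of the 10 genes, 11 windows in all. TTGCNNAA occurred at 2 places in the window of *Plin1* and at 2 in the most downstream of the 3 windows of *Pparg*, and AGGTCA occurred at 1 place in each of the other *Pparg* windows. The window of *Cebpa* held TATAAA, and those of *Adipoq*, *Cxcl12*, *Cfd* and *Lepr* held none of the letters searched. A match of letters is a description of the sequence and not a measured binding site. The *Pparg* window (chr6:115421816-115422065, plus strand, GRCm38.p6) is shown with its matches in capitals, 215 and 16 bases before the start.
*Pparg* promoter: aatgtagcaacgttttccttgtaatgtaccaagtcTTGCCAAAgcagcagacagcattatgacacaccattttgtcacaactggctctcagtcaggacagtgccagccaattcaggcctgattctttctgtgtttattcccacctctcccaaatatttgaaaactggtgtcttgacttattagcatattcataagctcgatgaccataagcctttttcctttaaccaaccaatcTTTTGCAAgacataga

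Beside the members, 13 further regulators of fat cell formation had a median log2 fold change of -0.06, of which 4 lay above 0 and 9 below. An unadjusted limma p under 0.05 was reached by 2, both higher. They were *Dlk1*, an inhibitor of fat cell formation that cartilage also makes, and *Cebpb*, which acts early in it. *Dlk1* had 819, 966 and 736 normalised reads in Control and 1507, 1586 and 1466 in LS1, with a log2 fold change of 0.86 (SE 0.17, limma adjusted p = 0.120). *Cebpb* had a log2 fold change of 0.55 (SE 0.23, limma adjusted p = 0.351). In both genes the groups did not overlap. This held with LS1 higher for 3 of the 13, beside 10.3% of all genes tested. The lowest log2 fold changes were those of *Ebf2* (-0.47, SE 0.33) and the coactivator *Ppargc1a* (-0.31, SE 0.53). *Ppargc1a* rested on 259 reads in the 6 libraries together.

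*Adipoq* (ENSMUSG00000022878, chr16:23146536-23158028, plus strand), a hormone of adipocytes that stromal precursors in the marrow also express, had 2740, 2446 and 2947 normalised reads in Control. In LS1 it had 2420, 1989 and 4669. Replicates 1 and 2 of LS1 lay below every Control library and replicate 3 above every one. The log2 fold change was 0.06 (SE 0.28, 95% confidence interval -0.56 to 0.68, limma adjusted p = 0.946). It was -0.30 without LS1 replicate 3 and -0.01 without Control replicate 2. The highest library exceeded the lowest by 1.20-fold in Control and by 2.35-fold in LS1.

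*Cfd* (ENSMUSG00000061780, chr10:79890853-79892655, plus strand) had 2304, 1246 and 1326 normalised reads in Control and 1490, 829 and 2311 in LS1. Its highest values, in Control replicate 1 and LS1 replicate 3, were nearly equal. Its log2 fold change was -0.14 (SE 0.39, 95% confidence interval -1.04 to 0.77, limma adjusted p = 0.911), the widest interval of the 10. It was 0.14 without Control replicate 1 and 0.25 without LS1 replicate 2.

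The promoter window of *Adipoq* (chr16:23146286-23146535, plus strand, GRCm38.p6) and that of *Plin1* (chr7:79732777-79733026, minus strand) are set beside each other because both are genes of the mature adipocyte, with log2 fold changes of 0.06 and 0.84. Neither gene passed the adjusted threshold with limma. The capitals in *Plin1* mark TTGCNNAA, 187 and 58 bases before the start, and *Adipoq* has none. By its gene coordinates *Plin1* begins inside its window, at 79732903, between these matches. These letters stand in 9.56% of all mouse windows, and whether they had a part in either value was not tested.
*Adipoq* promoter: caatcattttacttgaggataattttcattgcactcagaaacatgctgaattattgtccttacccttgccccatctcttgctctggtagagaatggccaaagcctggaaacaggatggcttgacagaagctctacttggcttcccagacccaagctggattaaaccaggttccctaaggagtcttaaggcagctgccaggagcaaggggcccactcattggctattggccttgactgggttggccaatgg
*Plin1* promoter: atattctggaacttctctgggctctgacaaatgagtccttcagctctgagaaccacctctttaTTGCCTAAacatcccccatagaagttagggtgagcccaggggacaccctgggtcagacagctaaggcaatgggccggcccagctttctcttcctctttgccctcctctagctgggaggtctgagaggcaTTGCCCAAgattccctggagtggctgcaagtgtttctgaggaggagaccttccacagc

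*Lpl* (ENSMUSG00000015568, chr8:68880491-68907448, plus strand), the enzyme that frees fatty acids from circulating lipoproteins, had 15190, 13041 and 13284 normalised reads in Control and 24919, 19169 and 23545 in LS1. The lowest LS1 library was above the highest Control library. Means were 13838 ± 1177 in Control and 22545 ± 3003 in LS1 (SD, n = 3 mice each), a fold change of 1.62 (95% confidence interval 1.31 to 2.01). On the log2 scale this was 0.70 with an SE of 0.14. The adjusted p of *Lpl* was 0.128 with limma and 0.00322 with DESeq2, and the two-sided exact permutation p was 0.1. Leaving out any library kept the log2 fold change between 0.62 and 0.81, with limma adjusted p-values of 0.0670 to 0.408.

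*Plin1* (ENSMUSG00000030546, chr7:79720218-79732903, minus strand) had 478, 471 and 332 normalised reads in Control. In LS1 it had 944, 468 and 975. Replicates 1 and 3 of LS1 were at about the same level, and replicate 2 lay within the Control range. The fold change was 1.79 (95% confidence interval 1.15 to 2.78), or 0.84 on the log2 scale with an SE of 0.29, the largest of the 10. The adjusted p was 0.285 with limma and 0.0574 with DESeq2, and the exact permutation p was 0.3. With 1 library left out the log2 fold change ran from 0.66 (without LS1 replicate 3) to 1.18 (without LS1 replicate 2).

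*Fabp4* (ENSMUSG00000062515, chr3:10204088-10208576, minus strand) had 11025, 9803 and 10096 normalised reads in Control and 9961, 6661 and 14076 in LS1. Like *Adipoq* and *Cfd*, it was lowest in LS1 replicate 2 and highest in LS1 replicate 3. The log2 fold change was -0.07 (SE 0.23, 95% confidence interval -0.58 to 0.43, limma adjusted p = 0.919), and it was 0.20 without LS1 replicate 2.

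Ratios of normalised read counts were taken to show how the lipid genes stood to *Adipoq* and *Fabp4* within the same library. The ratio of *Plin1* to *Adipoq* was 0.175, 0.193 and 0.113 in Control and 0.390, 0.235 and 0.209 in LS1. Every LS1 value was above every Control value, with a mean difference of 0.78 on the log2 scale. The ratio of *Lpl* to *Fabp4* was 1.38, 1.33 and 1.32 in Control and 2.50, 2.88 and 1.67 in LS1, again without overlap and with a mean log2 difference of 0.77. For each of these ratios the two-sided exact permutation p was 0.1, the smallest possible. The ratio of *Lpl* to *Adipoq* was 5.54, 5.33 and 4.51 in Control and 10.3, 9.64 and 5.04 in LS1, where replicate 3 fell within the Control range (exact permutation p = 0.3). By contrast, the ratio of *Fabp4* to *Adipoq* was 4.02, 4.01 and 3.43 in Control and 4.12, 3.35 and 3.01 in LS1 (exact permutation p = 0.6). These ratios were chosen after the values of the genes had been seen.

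**Figure D3:**
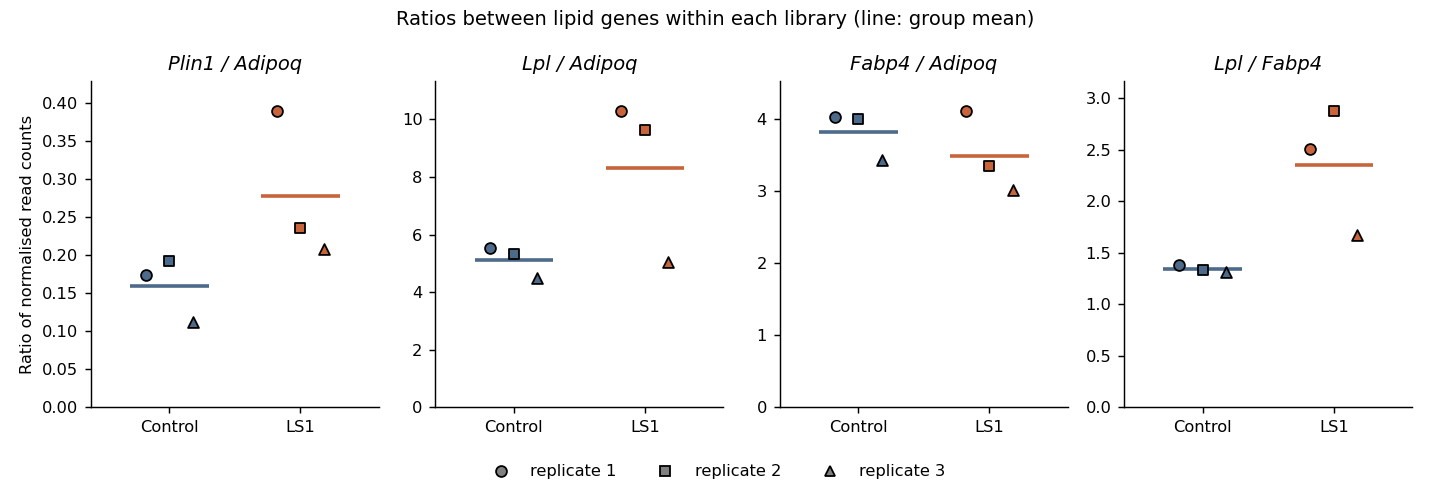
Ratios of normalised read counts between lipid genes within each library (points, with the shape giving the replicate; lines are group means, 3 mice per group). *Plin1* to *Adipoq* and *Lpl* to *Fabp4* are higher in every LS1 library than in any Control library, while *Fabp4* to *Adipoq* spans 3.01 to 4.12 in LS1, around the Control values of 3.43 to 4.02.

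A list of partners of lipoprotein lipase, which also holds lipoprotein receptors and the related lipases *Lipc* and *Lipg*, had values on both sides. Of 9 tested, 3 were higher and 6 lower, with a median log2 fold change of -0.08, and 2 in each direction had an unadjusted limma p under 0.05. *Gpihbp1*, which carries the enzyme across the capillary wall, had a log2 fold change of -0.08, *Lmf1*, which helps to fold it, of -0.06, and its inhibitor *Angptl4* of -0.35 (SE 0.22). The highest were *Vldlr* (0.45, SE 0.17), a lipoprotein receptor, and *Sel1l* (0.39, SE 0.15), a factor of protein folding that also serves the enzyme. The lowest were the apolipoprotein *Apoc1* (-0.78, SE 0.30) and hepatic lipase *Lipc* (-0.35, SE 0.13), while the activator *Apoc2* was listed at 0 in all libraries. *Vldlr* was highest in LS1 replicate 3, with 14595 normalised reads against 7556 to 8419 in Control.

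Beside *Plin1*, genes of the lipid droplet and of lipolysis had values on both sides. Of 11 tested, 5 were higher and 6 lower, with a median log2 fold change of -0.19. Hormone-sensitive lipase (*Lipe*), which perilipin 1 is known to restrain, had 2265, 2021 and 2171 normalised reads in Control and 1800, 1379 and 1201 in LS1, a log2 fold change of -0.58 (SE 0.17, limma adjusted p = 0.249). Every LS1 library was lower, as it was for the monoglyceride lipase *Mgll* (log2 fold change -0.49, SE 0.18, limma adjusted p = 0.299). In this list the groups did not overlap in 3 genes with LS1 lower and in 2 with LS1 higher. Over all genes tested, groups did not overlap in 19.2% in either direction. *G0s2*, an inhibitor of triglyceride lipase, was the highest with a log2 fold change of 0.82 (SE 0.30, limma adjusted p = 0.310), followed by *Plin3* with 0.19. *Cidec*, a droplet protein of adipocytes, had 580, 621 and 460 in Control and 384, 211 and 944 in LS1, the same order of LS1 libraries as *Adipoq*; it is named here for that order, seen in the data.

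Over 16 tested genes of fatty acid synthesis and uptake the median log2 fold change was -0.06, with 6 higher and 10 lower. The insulin-responsive glucose carrier *Slc2a4*, which muscle also expresses, was the lowest at -0.79 (SE 0.21, limma adjusted p = 0.226) and *Pck1* the next at -0.51. Malic enzyme *Me1* (0.50, SE 0.16) and *Agpat2* (0.36) were the highest. Skeletal muscle markers had a negative log2 fold change in 8 of 8 genes (median -0.72) and summed levels of 196 to 469 TPM in Control and 96.1 to 299.8 TPM in LS1. The part of muscle in the value of *Slc2a4* was not tested.

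All 6 other factors secreted by adipocytes had positive log2 fold changes (median 0.29). Of these, 3 had an unadjusted limma p under 0.05, beside 7.08% of all genes, counting those higher in LS1. The highest was *Nampt* (0.81, SE 0.23, limma adjusted p = 0.237), an enzyme of NAD synthesis that many cells make, with 3879, 3728 and 3587 normalised reads in Control and 7102, 9199 and 4316 in LS1. The list summed to 179 to 199 TPM in Control and 231 to 282 TPM in LS1, without overlap. Gene by gene, the groups did not overlap in 2 of the 6, *Nampt* and *Rbp4*, beside 10.3% of all genes with LS1 higher. After *Nampt* the highest log2 fold change was that of *Itih5* with 0.55 (SE 0.19), and the lowest were *Retn* (0.13, SE 0.76) and *Rarres2* (0.21, SE 0.32). Adipsin starts the alternative complement pathway by cutting factor B. The highest log2 fold changes of that pathway were those of factor B itself (*Cfb*, 2.32, SE 0.74, limma adjusted p = 0.264) and *C3* (0.68, SE 0.18, limma adjusted p = 0.220). *Cfb* rested on 237 reads in the 6 libraries together, 151 of them in LS1 replicate 2. Its normalised reads were 14.1, 4.43 and 7.74 in Control and 43.8, 131 and 14.0 in LS1, so the groups overlapped. *Cfp* was the lowest at 0.06, beside the log2 fold change of -0.14 for *Cfd*.

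Of 6 genes of brown adipocytes 4 passed the filter. *Ucp1*, which defines these cells, had 65 reads and *Elovl3* 14 reads over the 6 libraries, both under the filter, while *Dio2*, which other tissues also express, had 10391. *Dio2* was the highest of the 4 tested (log2 fold change 0.66, SE 0.17), then *Cidea* (0.18), and *Cox8b* (-1.11, SE 0.43) and *Cox7a1* (-0.65, SE 0.30), which muscle also expresses, were the lowest. Over all 17 lists, 149 distinct genes outside the 10 were tested, and limma called 0 of them, with 25 higher and 12 lower at an unadjusted p under 0.05 (24.8% of the 149, beside 12.9% of all genes). On recovered reads edgeR called 0 and DESeq2 called 12 (8.05%, beside 2.38% of all genes). The 9 that were higher were *Dlk1*, *Nampt*, *Dio2*, *Cfb* and *C3* and the chondrocyte markers *Col9a1*, *Matn1*, *Hapln1* and *Col10a1*, and the 3 that were lower were *Slc2a4*, the osteoblast marker *Bglap* and the muscle marker *Mb*.

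Compared per transcript length, *Fabp4* was the most abundant of the 10 genes in Control at 364 ± 19.7 TPM (SD, n = 3 mice). *Cxcl12* followed at 192 ± 21.7 TPM, *Lpl* at 107 ± 8.32 TPM, *Adipoq* at 66.4 ± 3.52 TPM and *Cfd* at 55.7 ± 19.4 TPM. *Lepr* had 23.9 ± 4.17 TPM, *Cebpa* 19.8 ± 1.47 TPM, *Kitl* 18.9 ± 1.14 TPM, *Pparg* 10.7 ± 1.77 TPM and *Plin1* 4.82 ± 1.06 TPM. The ranges over the Control mice overlapped between *Adipoq* and *Cfd*, between *Lepr* and *Cebpa* and between *Cebpa* and *Kitl*, so the order of these neighbours is not set. Length here was that of the principal transcript. With the length of all exons together, *Fabp4* and *Lpl*, whose longest forms are much longer, came to 95.2 and 54.7 TPM in Control and *Cxcl12* was first at 252 TPM. In LS1 the means were 371 ± 127 TPM for *Fabp4*, 219 ± 47.2 TPM for *Cxcl12*, 179 ± 20.1 TPM for *Lpl*, 76.1 ± 34.6 TPM for *Adipoq* and 54.3 ± 25.0 TPM for *Cfd*. The lower group stood at 32.7 ± 9.83 TPM for *Lepr*, 27.0 ± 2.55 TPM for *Kitl*, 26.6 ± 6.96 TPM for *Cebpa*, 13.8 ± 1.89 TPM for *Pparg* and 9.18 ± 3.10 TPM for *Plin1*. On this scale the arithmetic mean of *Fabp4* was higher in LS1, while that of its normalised reads was lower (10233 against 10308 in Control). Its log2 fold change stayed below 0 with the other scalings of the fit (-0.064 and -0.086). The direction of this small difference is not set.

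**Figure D4:**
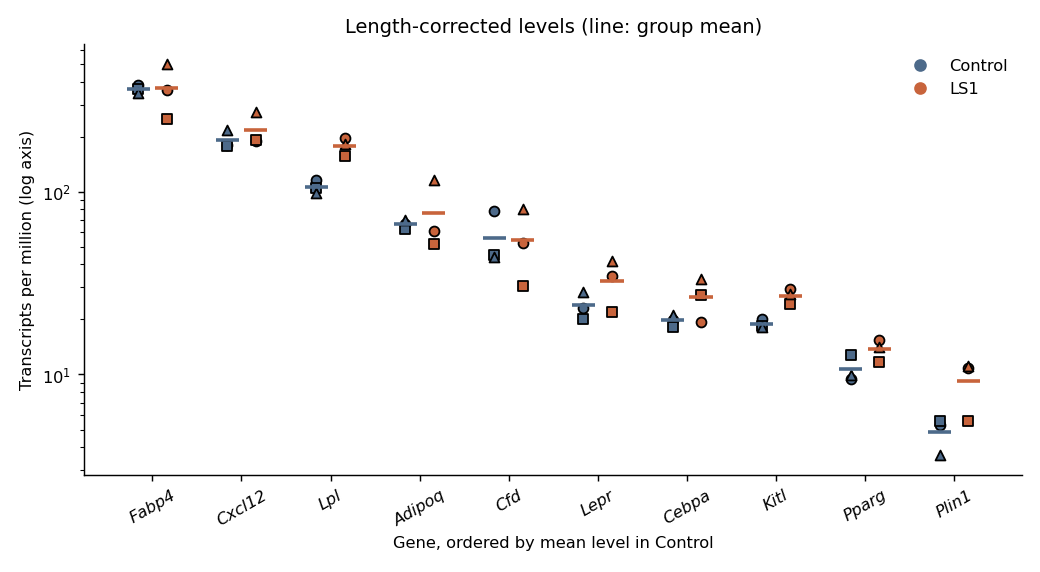
Length-corrected levels of the 10 genes in each library (points; TPM on a log axis; lines are group means, 3 mice per group), ordered by the mean in Control. Levels in Control run from 4.82 TPM for *Plin1* to 364 TPM for *Fabp4*.

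The 10 genes varied more among LS1 mice than among Control mice. In each of the 10 the ratio of the highest to the lowest library was larger in LS1 than in Control, where this held for 63.3% of all genes tested. The median ratio of the 10 was 1.26 in Control and 1.86 in LS1, beside 1.29 and 1.42 over all genes tested. It was widest for *Cfd* (1.85 in Control, 2.79 in LS1), *Adipoq* (1.20 and 2.35), *Fabp4* (1.12 and 2.11) and *Plin1* (1.44 and 2.08). LS1 replicate 3 was the highest of the 6 libraries in 7 of the 10 genes, against 16% of all genes tested, and LS1 replicate 1 in the other 3, *Kitl*, *Pparg* and *Lpl*. Measured against the Control mean, the median deviation of the 10 was 0.65 on the log2 scale in LS1 replicate 3, 0.23 in replicate 1 and -0.01 in replicate 2, while over all genes tested it was 0.03 in LS1 replicate 3. No test was made of this spread, because the genes are not independent of each other and each group holds 3 mice.

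**Figure D5:**
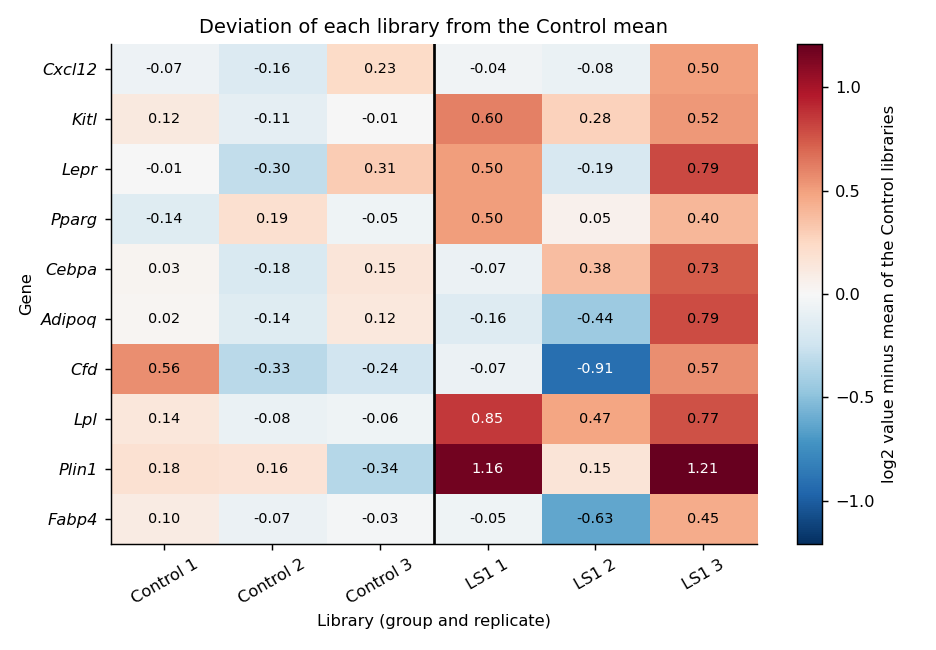
Deviation of each library (columns, 3 Control and 3 LS1 mice) from the mean of the Control libraries for each of the 10 genes (rows), on the log2 scale, with the value printed in each cell. LS1 replicate 3 is above the Control mean in all 10 rows, by 0.40 to 1.21, and LS1 replicate 2 is below it by 0.44 to 0.91 in *Adipoq*, *Fabp4* and *Cfd*.

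Among 33 distinct tested genes on the lists of droplet, fatty acid and secreted factors, LS1 replicate 3 was the highest library in 11 (33.3%, beside 16% of all genes tested). LS1 replicate 2 was the lowest in 5 (15.2%, beside 13.5%) and the range was wider in LS1 in 22 (66.7%, beside 63.3%), both shares near those of all genes. Summed markers of some other cell types were also high in LS1 replicate 3. The 8 endothelial genes summed to 314 TPM there, against 239 to 276 TPM in Control and 260 and 271 TPM in the other LS1 mice. It was the highest library in 5 of these 8. The 8 genes of macrophages and osteoclasts summed to 9057 TPM, against 6553 to 8394 TPM in Control and 5463 and 7565 TPM in the other LS1 mice. In that list LS1 replicate 3 was the highest in only 2 of 8 genes, *Acp5* and *Ctsk*. The macrophage gene *Adgre1* was lowest there, with 1431 normalised reads against 1565 to 1629 in Control and 4876 and 3316 in the other LS1 mice. Whether these cells had a part in the values of the 10 genes was not tested.

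Across the 6 libraries, likeness of profile was measured as the root mean square difference of log2 values, each gene centred on its own mean, over 14769 genes with a mean of at least 100 reads. These are 6 points from 2 groups, given as a description. *Fabp4* was the 25th nearest gene to *Adipoq* (difference 0.167) and *Cxcl12* the 58th (0.201), where the median gene differed by 0.434. *Lepr* ranked 386, *Cebpa* 1107, *Cfd* 2029, *Pparg* 4599 and *Kitl* 5235, while *Lpl* (9137) and *Plin1* (11864) lay in the farther part of the order. The 5 nearest to *Adipoq* were *Syt6* (0.051), *Gm5384* (0.073), *Ccdc114* (0.099), *Gm20430* (0.114) and *Scn3a* (0.120). Nearest to *Cxcl12* were *Tmem159* (0.031), *Sox7* (0.047), *Ifngr1* (0.055), *Efemp2* (0.057) and *Mgat4b* (0.059). Of the 10, *Cebpa* came closest to *Cxcl12* at rank 1135, then *Adipoq* at 1694, *Lepr* at 3271, *Fabp4* at 3404, *Kitl* at 5456 and *Pparg* at 5768. *Lpl* at 10218, *Cfd* at 12574 and *Plin1* at 13575 were the farthest.

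Markers of cells other than stroma and fat also stood apart between the groups, and their values are given beside the higher *Lpl*, *Plin1* and *Kitl*. Chondrocyte genes were higher in 8 of 8 (median log2 fold change 0.56), 6 of them at an unadjusted limma p under 0.05. Their summed level was 10600 to 12947 TPM in Control and 15698 to 17883 TPM in LS1, with *Hapln1* (0.94) and *Col9a1* (0.72) the highest and *Comp* (0.19) and *Col2a1* (0.24) the lowest. Genes of fibroblasts and synovium, at 1885 to 2106 TPM in Control and 2185 to 2666 TPM in LS1, were higher in 8 of 8, from *Pdpn* (0.01) and *Pi16* (0.05) to *Thy1* (0.43) and *Prg4* (0.75). Genes of myeloid progenitors and neutrophils were higher in 7 of 8, from *Mpo* (-0.03) and *Ngp* (0.14) to *Ltf* (0.40) and *Elane* (0.42), at 6501 to 8779 TPM in Control and 8893 to 9824 TPM in LS1. In these 3 lists the summed levels did not overlap between the groups. Gene by gene, LS1 was higher without overlap in 5 of 8 chondrocyte genes. This held for only 1 of 8 genes of fibroblasts and synovium and 1 of 8 of myeloid progenitors and neutrophils, beside 10.3% of all genes tested. The part of these cell types in the differences of the 10 genes was not tested.

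The other marker lists overlapped in their summed levels. The median log2 fold change was 0.08 for endothelial genes, from *Pecam1* (-0.11) and *Esam* (-0.07) to *Tie1* (0.19) and *Tek* (0.38). It was 0.17 for macrophages and osteoclasts, from *Acp5* (-0.18) and *Ctsk* (0.03) to *C1qb* (0.59) and *Adgre1* (0.83). For osteoblasts it was 0.01, from *Bglap* (-1.10), which has near-identical copies, and *Col1a1* (-0.19) to *Phex* (0.29) and *Ibsp* (0.37). Erythroid genes had negative values in 5 of 5 tested, with *Klf1* (-0.74) and *Epor* (-0.55) the lowest and *Alas2* at -0.46. They summed to 2373 to 3374 TPM in Control, against 1636 to 2823 TPM for LS1. In muscle the lowest were *Mb* (-1.38) and *Myh4* (-1.10) and the highest *Ckm* (-0.53) and *Myh1* (-0.58). Apart from *Apoc2*, no listed gene of the table was at 0 in every library.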

How the data were processed

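Polyadenylated RNA of the proximal tibia from 3 LS1 and 3 Control mice was sequenced. The authors mapped the reads to GRCm38 (Ensembl release 84) with HISAT2 2.0.2, counted them per gene with featureCounts 1.4.6 and used DESeq2, and whether counting used strand is not given in the sources used here. The deposited values are a signal per gene, namely read counts divided by 1 size factor per library, in 6 columns, with 0 left unused. Reads were recovered by dividing each value by that of 1 read (0.870 to 1.11), and 100% of values came out whole within 0.01. In Control replicate 1 this step was 1.01, nearer to 1 than in the other libraries, and edgeR was also run without that library. On the recovered reads edgeR called 7 genes.

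LS1 and Control were compared with limma 3.58.1 (R 4.3.3; mean-variance trend, robust moderation) on log2 of the value plus a pseudocount of 1, which makes fold changes of genes with few reads too small. The 19308 genes averaging 20 or more recovered reads were tested. The p-values were adjusted over all of them by the Benjamini-Hochberg method at 0.05. Alternatives were edgeR 4.0.16, DESeq2 1.42.0, other scalings, pseudocounts and filters, blocking on the replicate number, and leaving out each library. The scripts were tested on simulated data.

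The labels name the libraries as separate mice. Gene symbols came from GENCODE M21 on GRCm38 (98.9% of identifiers), TPM from recovered reads over the length of the principal transcript, and promoter windows from RefSeq (GRCm38.p6). The named genes are the 10 members, the 2 highest and 2 lowest log2 fold changes of each list, receptors and partners of the members, and the 5 nearest profiles. A few listed genes are not reported here. Others are named as chosen after their values were seen. The members and lists were chosen with earlier results of these data known.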

Additional observations from a re-analysis of the deposited data

How the results depend on the processing

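The 10 genes were refitted under 17 alternatives. Of the 170 log2 fold changes, 161 kept their direction and their side of the adjusted threshold, 8 turned direction and 1 newly passed it. The last was *Lpl* with DESeq2 (0.70, adjusted p = 0.00322), so that DESeq2 called 1 of the 10 genes and the other alternatives called 0. The direction turned for *Cxcl12* without LS1 replicate 3 (-0.061), for *Adipoq* without Control replicate 2 (-0.01) and without LS1 replicate 3 (-0.30), for *Cfd* without Control replicate 1 (0.14) and without LS1 replicate 2 (0.25), and for *Fabp4* without LS1 replicate 2 (0.20). With edgeR without Control replicate 1, an alternative added after the data were seen, *Cfd* stood at 0.24 and *Fabp4* at 0.021. With 1 library left out, the log2 fold change ran from -0.30 to 0.31 for *Adipoq*, from -0.49 to 0.25 for *Cfd*, from -0.061 to 0.24 for *Cxcl12* and from -0.34 to 0.20 for *Fabp4*. The cause was not tested.

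Over all genes, limma called 14. The count was 7 with edgeR, 459 with DESeq2, 7 with limma without robust moderation, 45 with no filter on low values, 9 with a filter at a mean of 100 reads and 5 with edgeR without Control replicate 1. With 1 library left out it ran from 5 (without Control replicate 2) to 324 (without LS1 replicate 3), with 48 without LS1 replicate 1 and 9 without Control replicate 1.

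Replicate numbers follow the letters A, B and C, which the library titles share between the groups and whose meaning is not stated. Same-numbered libraries correlated in their deviations by 0.05, 0.02 and 0.22, and differently numbered ones by -0.15 to 0.12. Deviations centred on 3 mice per group cannot settle whether the letters mark pairs or a batch. The mice were not treated as pairs in the main fit. With the replicate block limma called 12 genes and 0 of the 10. At an unadjusted limma p under 0.05 the block gave 4 of the 10 genes, *Lepr* being the one added. Over all 19308 genes the number at this p rose as well, from 2499 without the block to 3377 with it.

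Length-corrected levels depend on the transcript length used, as the values of *Fabp4* and *Lpl* show. With 3 mice per group the smallest exact permutation p is 0.1. Intervals as wide as those of *Cfd* and *Adipoq* do not show that the groups were equal.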
